A study of Homo sapiens with 24 samples.

Results

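The 10 genes described here encode molecules through which a tumour cell restrains an immune attack. They were chosen by symbol, as the rows of the count table for CD274, PDCD1LG2, CD276, PVR, NECTIN2, LGALS9, CD47, NT5E, CD55 and CD59, and all 10 were found among its 60617 genes. Of these, 9 had enough reads to be tested, and PDCD1LG2 did not pass the filter on low counts. RNA was sequenced from MDA686TU, a single established line of squamous carcinoma cells from the head and neck, grown in DMEM/F12 medium with serum. The 4 groups, each of 6 replicates taken after 24 h, were a control without either agent, epigallocatechin gallate (EGCG, the main polyphenol of green tea) at 40 µM, resveratrol (a phytoalexin of grapes) at 15 µM, and the combination of EGCG at 40 µM with resveratrol at 15 µM. The study asked how these dietary compounds, alone and together, act against head and neck cancer, and this panel asks whether the genes for immune ligands were among those that responded. The sources do not state whether the replicates were separate cultures, so p-values measure the spread between these samples. They also do not state whether control cells received DMSO, the solvent of the resveratrol stock, so resveratrol and its solvent cannot be told apart.

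An immune checkpoint is an inhibitory signal that starts when a receptor on a T cell, natural killer cell or macrophage binds its ligand on another cell. PD-L1, the product of CD274, binds PD-1 on T cells and is the target of antibodies used in head and neck cancer. In squamous cells its gene is switched on by interferon signals through JAK kinases and STAT factors. Other molecules act on different arms of immunity: CD47 tells macrophages not to engulf the cell, CD73 turns extracellular AMP into adenosine, which quiets T cells, and CD55 and CD59 hold off complement. All values below are RNA, and protein at the cell surface was not measured in these data.

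Promoters are shown for CD274, NT5E, PVR and NECTIN2, 4 of the 5 genes found to differ between combination and control. That of the other, CD55, is not shown. Each window holds 250 bases before and 50 bases after a transcription start in RefSeq, build GRCh38.p14, on the plus strand. The positions are chr9:5450292-5450591 for CD274, chr6:85449833-85450132 for NT5E, chr19:44643660-44643959 for PVR and chr19:44846047-44846346 for NECTIN2. Capitals mark matches, on either strand, to the motifs described after the sequences.
CD274: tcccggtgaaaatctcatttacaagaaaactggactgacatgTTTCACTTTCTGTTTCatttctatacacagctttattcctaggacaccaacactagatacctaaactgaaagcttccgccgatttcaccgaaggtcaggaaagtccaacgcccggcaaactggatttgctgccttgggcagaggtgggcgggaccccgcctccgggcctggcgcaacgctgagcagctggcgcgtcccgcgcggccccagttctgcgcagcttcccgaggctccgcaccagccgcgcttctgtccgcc
NT5E: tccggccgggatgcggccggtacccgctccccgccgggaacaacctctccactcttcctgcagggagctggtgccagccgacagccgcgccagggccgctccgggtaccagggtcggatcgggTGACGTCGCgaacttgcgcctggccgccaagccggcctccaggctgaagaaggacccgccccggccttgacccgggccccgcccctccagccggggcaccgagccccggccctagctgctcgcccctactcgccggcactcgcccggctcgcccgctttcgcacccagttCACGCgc
PVR: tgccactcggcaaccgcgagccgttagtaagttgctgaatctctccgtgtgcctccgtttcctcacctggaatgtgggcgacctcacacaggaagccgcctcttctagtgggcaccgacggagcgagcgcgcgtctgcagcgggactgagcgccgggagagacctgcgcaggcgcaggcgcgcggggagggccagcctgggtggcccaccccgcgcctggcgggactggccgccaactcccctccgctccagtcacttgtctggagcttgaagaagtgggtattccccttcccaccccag
NECTIN2: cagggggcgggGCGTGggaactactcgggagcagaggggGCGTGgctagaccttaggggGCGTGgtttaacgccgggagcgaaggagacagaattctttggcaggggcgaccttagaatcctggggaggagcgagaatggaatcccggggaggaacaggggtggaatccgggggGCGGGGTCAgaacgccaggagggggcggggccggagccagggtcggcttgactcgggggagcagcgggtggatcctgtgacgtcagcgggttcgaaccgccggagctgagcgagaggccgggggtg

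Both strands were searched for 7 motifs that bind factors of the interferon, NF-kappaB, antioxidant, AP-1, C/EBP-ATF, xenobiotic and hypoxia responses. RefSeq windows were found for 9 of the 10 genes, 13 windows in all. The CD274 window held the tetramer GAAA in tandem with a gap of 2 bases, the core of an interferon-stimulated response element, at 2 overlapping places on the minus strand, at offsets -208 and -202 from the start. That motif was present in 3.57% of the 35116 windows of the table. LGALS9 held it once, at offset -9. The antioxidant response element core, TGACNNNGC, was present in 13.3% of all windows and in those of NT5E (offset -127), NECTIN2 (offset -76) and CD47 (offset -118). The xenobiotic response core GCGTG, present in 36.5% of all windows, occurred once in the NT5E window, 3 times in that of NECTIN2 and 3 times in that of CD47. Windows of CD59 held the AP-1 site TGANTCA, found in 7.71% of all windows, and the hypoxia response core ACGTG, found in 21.4%. ACGTG also occurred in windows of CD47 and CD276, and the kappaB consensus, present in 11.3% of all windows, in a window of CD276. The C/EBP-ATF composite core TGATGNAAT, present in 0.991% of all windows, matched in none of the 13, and PVR and CD55 held none of the 7 motifs. Apart from the pair in CD274, no matches overlapped. These are matches of letters in short windows and do not show that a factor was bound.

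The libraries held 7034872 to 11735574 counts, and 15476 genes were tested. The biological coefficient of variation was 5.32%. Mitochondrial transcripts made up 0.249% to 0.326% of the libraries numbered 1 to 3 in each group, against 0.448% to 0.775% of those numbered 4 to 6. The labels name no batch, and each of these sets holds 3 libraries of every group. Values within each set are given beside some, not all, of the results that differ between them. Squamous markers defined the cells: the summed FPKM of 9 markers was 6404 to 6744 in control libraries, 6109 to 6892 with EGCG, 5323 to 5606 with resveratrol and 5282 to 5771 with both agents. The keratins KRT5 and KRT6A were lower, with log2 fold changes of -0.37 and -0.35 in the combination against control. CDH1, the epithelial cadherin, was higher there by 0.43. The summed FPKM of 14 leukocyte markers stayed between 0.191 and 0.732, with 2 of the 14 at 0 in every library. That of 12 fibroblast and endothelial markers was 10.9 to 21.0, most of it COL1A1 (13.8 FPKM without either agent, 11.4 with EGCG, 16.9 with resveratrol and 19.3 with both), with 1 at 0 in every library. In a bulk library of a cell line, fewer cells that express a gene and less RNA per cell cannot be told apart.

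Per unit of length, the genes of this panel fell into a group of well expressed and a group of barely expressed members. FPKM, fragments scaled to gene length and sequencing depth, is used only for this ordering. In the control, CD276 had 17.5 ± 0.486 FPKM (SD, n = 6), PVR a mean of 18.5 within 16.7 to 19.6, NT5E 15.9 ± 0.899, NECTIN2 15.6 ± 0.716 and CD59 14.0 ± 0.453. The ranges of PVR and CD276 overlapped, as did those of NT5E and NECTIN2 and of NECTIN2 and CD59. CD55 followed at 6.80 ± 0.343 FPKM and CD47 at 3.95 ± 0.0906, each apart from its neighbours. The ligands of PD-1 and of TIM-3 came last: CD274 at 0.627 ± 0.149 FPKM, PDCD1LG2 at 0.265 ± 0.119 and LGALS9 at 0.149, within 0.0924 to 0.246, with neighbouring ranges that overlapped. LGALS9 held 6.12% of the control reads of itself and its near-identical copies LGALS9B and LGALS9C, by normalized counts, so its own level is uncertain. PVR was in the first place in all 4 groups. NT5E went from place 3 in the control to place 5 with the combination, at 9.25 ± 0.557 FPKM, and NECTIN2 went from place 4 to place 2, at 17.6 ± 0.655 FPKM. The order of the members above CD274 depends on the gene lengths used. With union exon lengths of GENCODE v44, CD276 came first, PVR took place 5, and CD47, at place 6, came before CD55, at place 7. Of the 10 genes, 3 kept their place.

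**Figure D1:**
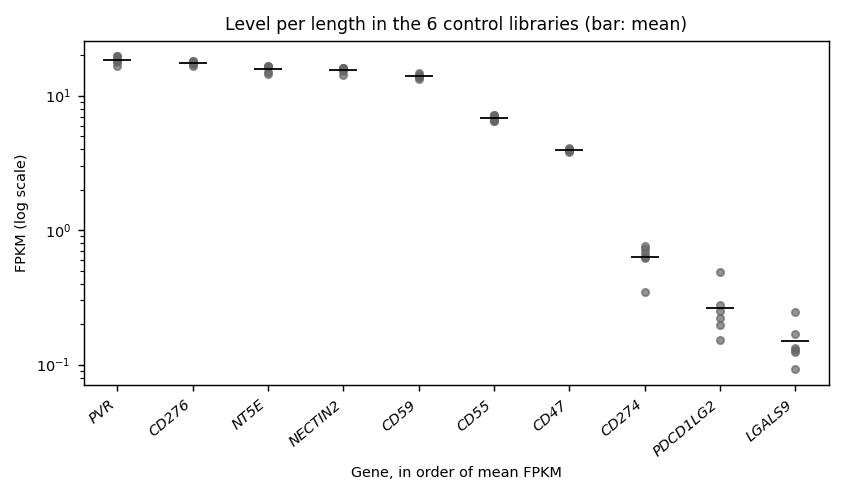
Level of each of the 10 genes in the control, as FPKM on a log axis, with a point for each of the 6 libraries and a bar for the mean. PVR, CD276, NT5E, NECTIN2 and CD59 lie between 13.4 and 19.6 FPKM, and CD274, PDCD1LG2 and LGALS9 lie under 0.769.

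CD274 was sparse in every library, and higher with the combination than in the control or with resveratrol. Its gene lies at chr9:5450503-5470566 (GRCh38, GENCODE v44, plus strand), 39965 bases upstream of PDCD1LG2. Raw counts were 12 to 39 a library, so counting error is a large part of the spread. Levels in the following are normalized counts, the counts divided by a size factor for each library. In the control they ranged from 12.4 to 27.5 (median 23.5), with EGCG from 25.7 to 33.4 (median 29.0), with resveratrol from 14.3 to 27.1 (median 23.2) and with the combination from 27.2 to 34.2 (median 32.6). Every library of the combination lay above every resveratrol library, and 5 of 6 EGCG libraries lay above all controls. Resveratrol and control overlapped over nearly their whole range.

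In the combination, CD274 was higher than in the control by 41.7%, a log2 fold change of 0.50 ± 0.16 (SE, adjusted p = 0.00598). All adjusted p-values here are from edgeR's quasi-likelihood test with Benjamini-Hochberg adjustment over all genes tested. A gene was called where its adjusted p was under 0.1 and its p under 0.05. This rise was called in all 23 alternative fits. The combination was also above resveratrol alone by 0.50 ± 0.15 on the log2 scale (edgeR, adjusted p = 0.0492). That call was lost in 6 of 23 alternatives, among them DESeq2 (adjusted p = 0.107), the fit without Resveratrol replicate 1 (0.40, adjusted p = 0.166) and the fit without Combination replicate 3 (0.47, adjusted p = 0.104). The combination and EGCG alone were not shown to differ (0.11 ± 0.15, adjusted p = 0.56), and their ranges overlapped. EGCG alone gave a difference from control of 0.39 ± 0.16 with a 95% interval of 0.08 to 0.71, which was not called (adjusted p = 0.313). Resveratrol alone gave 0.00 ± 0.16, with an interval of -0.33 to 0.34. The interaction, which asks whether EGCG acts differently beside resveratrol, was 0.11 ± 0.22 and was not called (adjusted p = 0.959).

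A long noncoding RNA, ENSG00000286162, runs opposite to CD274 and PDCD1LG2. Whether reads were counted by strand is not given in the sources used here, so part of the CD274 reads could belong to it. Its level was 22.0 ± 6.70 normalized counts in the control, 17.2 ± 2.88 with EGCG, 14.0 ± 2.68 with resveratrol and 14.8 ± 3.82 with both agents. Against control its log2 fold change was -0.65 ± 0.19 with resveratrol (adjusted p = 0.00539), where CD274 was not called, and -0.57 ± 0.20 with the combination (adjusted p = 0.0142), where CD274 was higher. The part of these reads in the CD274 values was not tested.

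**Figure D2:**
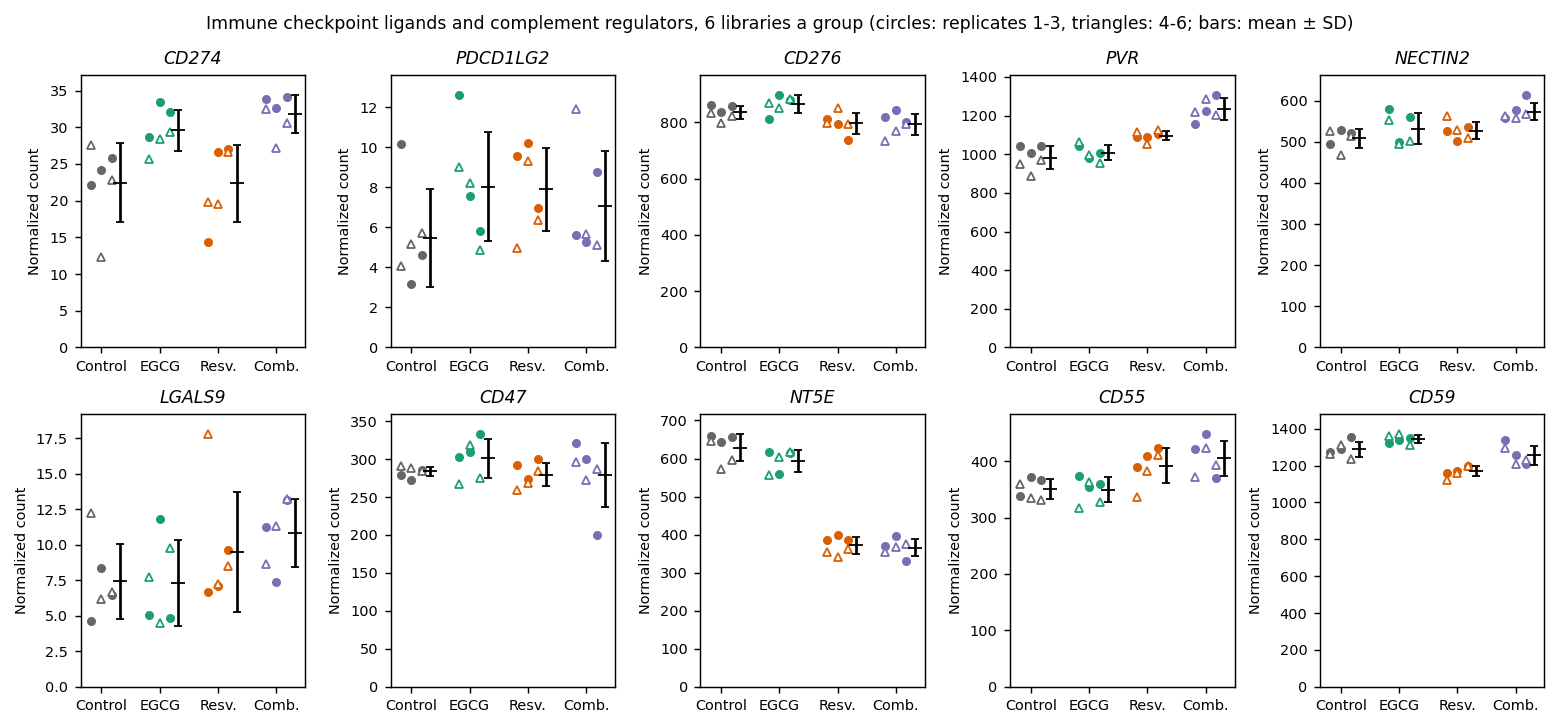
Normalized counts of each gene (y axis, from 0) in the 4 groups (x axis), with circles for replicates 1 to 3, triangles for replicates 4 to 6, and a bar for the mean ± SD of 6 libraries. NT5E with resveratrol and the combination lies below every library of the control and EGCG groups, and PVR with the combination lies above every library of the other groups.

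PDCD1LG2 encodes PD-L2, the second ligand of PD-1, and lies at chr9:5510531-5571282. It had 3 to 15 raw counts a library. Normalized counts were 3.15 to 10.1 in the control (median 4.88), 4.89 to 12.6 with EGCG (median 7.89), 4.95 to 10.2 with resveratrol (median 8.14) and 5.10 to 11.9 with the combination (median 5.65). All 4 groups overlapped. Two-sided exact permutation tests on log2 CPM, 6 libraries against 6, gave p = 0.0931 for EGCG, p = 0.0693 for resveratrol and p = 0.234 for the combination against control. The smallest p that this design can give is 0.00216. When every gene with a count was tested, edgeR gave 0.56 for EGCG against control (adjusted p = 0.686), and no comparison of PDCD1LG2 was called.

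CD276 encodes B7-H3, a member of the B7 family whose receptor is not settled, and lies at chr15:73683966-73714514. It was among the best expressed of the panel per length, and was called in 1 of the comparisons. Normalized counts were 836 ± 23.2 in the control, 865 ± 31.0 with EGCG, 797 ± 37.2 with resveratrol and 793 ± 37.7 with both agents (SD, n = 6). Against control the differences of 0.05, -0.06 and -0.07 on the log2 scale, in that order, were not called. Of 23 alternatives, 2 called the fall with resveratrol and 1 the fall with the combination. The combination was below EGCG alone by 0.12 ± 0.04 (log2 fold change -0.12, adjusted p = 0.00643). That last call did not hold with library size as the only scaling (-0.04, adjusted p = 0.320) or in replicates 1 to 3 alone (-0.07, adjusted p = 0.338).

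PVR, or CD155, is a nectin-like adhesion molecule that binds the inhibitory receptor TIGIT and the activating receptor DNAM-1. Its gene lies at chr19:44643798-44666162. It was higher with resveratrol than in the control, and higher again with the combination. Normalized counts ran from 886 to 1043 in the control (median 989), 956 to 1063 with EGCG (median 1001), 1053 to 1124 with resveratrol (median 1099) and 1155 to 1308 with the combination (median 1220). The control, resveratrol and combination libraries did not overlap with one another, while EGCG overlapped with the control.

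Against control, PVR rose by 11.8% with resveratrol, a log2 fold change of 0.16 ± 0.04 (edgeR, adjusted p = 0.000496). It rose by 25.6% with the combination, 0.33 ± 0.04 (adjusted p = 2.52e-09). Adding EGCG to resveratrol raised it by 12.3%, 0.17 ± 0.04 (adjusted p = 0.0044), and this call was kept in all 23 alternatives. EGCG alone gave 0.04 ± 0.04, with an interval of -0.04 to 0.11. The interaction was 0.13 ± 0.05 and did not pass (adjusted p = 0.519), so a different action of EGCG beside resveratrol was not shown. Within replicates 1 to 3 the resveratrol rise was 0.10 and not called (adjusted p = 0.144), and within replicates 4 to 6 it was 0.23 (adjusted p = 0.000201). The combination was above control in both sets, by 0.26 and 0.40. CEACAM19, which overlaps PVR on the same strand, had a mean of 11.7 normalized counts against 1080 for PVR.

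NECTIN2, or CD112, binds TIGIT, PVRIG and DNAM-1 and lies 180013 bases downstream of PVR, at chr19:44846175-44889223. Normalized counts were 468 to 528 in the control (median 518), 496 to 581 with EGCG (median 527), 502 to 563 with resveratrol (median 527) and 558 to 615 with the combination (median 566). Every combination library lay above every control, and the single agents overlapped with both. The combination rose by 13.1% over control, 0.18 ± 0.04 (edgeR, adjusted p = 0.000832), in all 23 alternatives. EGCG alone (0.07 ± 0.04) and resveratrol alone (0.06 ± 0.04) were not called, although resveratrol was with library size as the only scaling (0.14, adjusted p = 0.00613). The combination was above EGCG by 0.11 ± 0.04 (adjusted p = 0.0306), a call kept in 20 of 23 alternatives. Among those that lost it were replicates 1 to 3 alone (0.09, adjusted p = 0.265) and the fit without EGCG replicate 5 (0.09, adjusted p = 0.101). Against resveratrol the combination was higher by 0.12 ± 0.04 with an adjusted p of 0.104, and was not called, although 5 of 23 alternatives called it.

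LGALS9 encodes galectin-9, a ligand of TIM-3, and lies at chr17:27629798-27649560. With 5 to 18 raw counts a library it was close to the floor of detection. Normalized counts were 7.42 ± 2.65 in the control, 7.29 ± 3.03 with EGCG, 9.48 ± 4.22 with resveratrol and 10.8 ± 2.38 with both agents (SD, n = 6), and all groups overlapped. The combination was above EGCG by 0.65 ± 0.29 (adjusted p = 0.0572), a call that 10 of 21 alternatives lost, among them the fits without EGCG replicate 1, 3 or 5 (adjusted p = 0.112, 0.118 and 0.154) and without Combination replicate 3 or 6 (adjusted p = 0.121 and 0.113). Against control the combination gave 0.57 ± 0.29 with an adjusted p of 0.0895, and was not called since its unadjusted p was above 0.05. This rise was called in 4 of 21 alternatives. LGALS9B and LGALS9C are near-identical copies on the same chromosome, and LGALS9 held 6.12% to 8.28% of the sum of the 3 genes by group. How reads that match several copies were counted is not given in the sources used here, so the origin of these reads is uncertain.

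CD47, the ligand of SIRPA on macrophages, lies at chr3:108043091-108091862 on the minus strand. It was called in no comparison. Normalized counts were 273 to 291 in the control (median 285), 267 to 333 with EGCG (median 306), 259 to 300 with resveratrol (median 279) and 200 to 321 with the combination (median 292). The groups overlapped, and Combination replicate 3, at 199.9, was the lowest library. Against control the 95% intervals of the log2 fold change were -0.05 to 0.24 for EGCG, -0.16 to 0.13 for resveratrol and -0.17 to 0.12 for the combination. The difference between combination and EGCG, -0.12 ± 0.07 (adjusted p = 0.14), was called in 2 of 23 alternatives.

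NT5E showed the largest change of the panel. It encodes CD73, the GPI-anchored enzyme that makes adenosine at the cell surface, and lies at chr6:85449584-85495791. Normalized counts were 573 to 658 in the control (median 645), 557 to 617 with EGCG (median 609), 341 to 398 with resveratrol (median 374) and 331 to 397 with the combination (median 369). The libraries with resveratrol, alone or in combination, all lay below all libraries without it, while control and EGCG overlapped, as did resveratrol and the combination.

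With resveratrol NT5E fell by 40.6%, a log2 fold change of -0.75 ± 0.05 (edgeR, adjusted p = 4.72e-16). With the combination it fell by 41.8%, -0.78 ± 0.05 (adjusted p = 1.79e-16), and the combination was below EGCG by 0.70 ± 0.05 (log2 fold change -0.70, adjusted p = 5.83e-15). These 3 calls held in all 23 alternatives, with the log2 fold change of resveratrol between -0.78 and -0.66. EGCG had no called effect, either alone (-0.08 ± 0.04, 95% interval -0.17 to 0.01) or beside resveratrol (-0.03 ± 0.05, interval -0.13 to 0.07).

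The complement regulators CD55 and CD59 are, like CD73, held in the membrane by a GPI anchor, and their RNAs moved in different directions. CD55, or decay-accelerating factor, breaks up the convertases that drive complement, and lies at chr1:207321519-207386804. Its normalized counts were 331 to 372 in the control (median 350), 317 to 374 with EGCG (median 357), 336 to 423 with resveratrol (median 399) and 371 to 448 with the combination (median 408). With resveratrol 5 of 6 libraries, and with the combination 4 of 6, lay above all controls. CD55 rose by 12.3% with resveratrol, 0.17 ± 0.05 (edgeR, adjusted p = 0.0100), and by 15.5% with the combination, 0.21 ± 0.05 (adjusted p = 0.00157). The resveratrol call was lost in replicates 4 to 6 alone (0.14, adjusted p = 0.147) and the combination call was not. Adding EGCG to resveratrol gave 0.04 ± 0.05, with an interval of -0.07 to 0.15.

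CD59, or protectin, blocks the final pore of complement and lies at chr11:33703010-33736479 on the minus strand. Normalized counts were 1234 to 1354 in the control (median 1282), 1314 to 1371 with EGCG (median 1344), 1124 to 1199 with resveratrol (median 1167) and 1207 to 1337 with the combination (median 1242). Every resveratrol library lay below every control and every combination library, and the combination overlapped with the control. With resveratrol CD59 fell by 8.91%, -0.13 ± 0.03 (edgeR, adjusted p = 0.000377), and the combination stood above resveratrol by 0.10 ± 0.03 (adjusted p = 0.0491). Against control, the combination gave -0.03 ± 0.03 and was not called (adjusted p = 0.364).

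The CD59 calls are small and depended on the scaling and on single libraries. With library size as the only scaling, its fall with resveratrol was -0.05 and was not called (adjusted p = 0.215). The difference between combination and resveratrol was called in 16 of 23 alternatives. Among those that lost it were the fits without Resveratrol replicate 4 (0.09, adjusted p = 0.108), Combination replicate 1 (0.08, adjusted p = 0.135) or Combination replicate 4 (0.09, adjusted p = 0.104). Against EGCG, the combination was lower by 0.10 ± 0.03 (log2 fold change -0.10, adjusted p = 0.00873), and with library size alone this was -0.02 (adjusted p = 0.611).

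**Figure D3:**
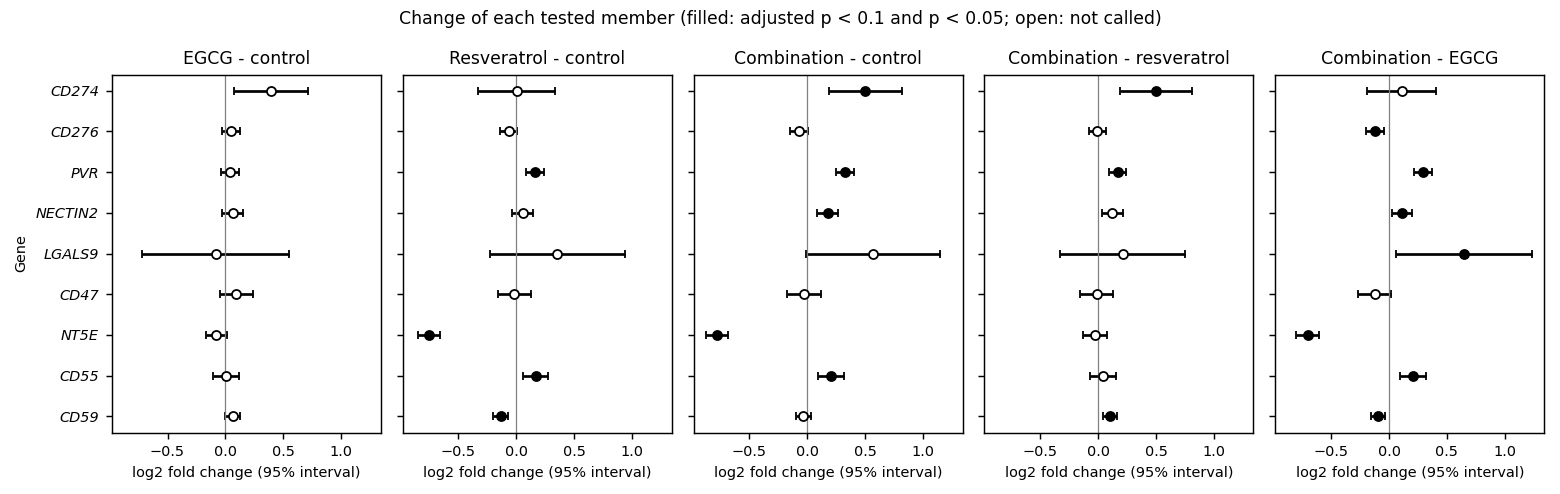
Log2 fold change of the 9 tested genes (x axis) in 5 comparisons (panels), with 95% intervals, filled where called and open where not. NT5E lies near -0.75 in the 3 panels that add resveratrol, and CD274 near 0.50 in the combination against both control and resveratrol.

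The members called in each comparison were counted beside the share of all genes called. EGCG alone called none of the 9 tested members by edgeR, beside 1.76% of all tested genes. DESeq2 also called none, but it gave CD274 no adjusted p in this comparison and so could not call it. At an unadjusted p under 0.05 in edgeR, EGCG alone passed 1 of 9, CD274, beside 10.1% of all tested genes. No member separated the 6 EGCG from the 6 control libraries, beside 1.58% of all genes. The median log2 fold change of the 9 was 0.05, against 0.00 for all genes.

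Resveratrol called 4 of 9, beside 56.9% of all tested genes. PVR and CD55 rose, beside 28.9% of all genes, and NT5E and CD59 fell, beside 28.0%. PVR, NT5E and CD59 had groups that did not overlap, beside 31.0% of all genes. The median of the 9 was 0.00, as over all genes. With library size as the only scaling, the calls over all genes were split into 6147 higher and 2857 lower, in place of 4466 and 4341, and the median over all genes was 0.09.

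The combination called 5 of 9 against control, beside 59.8% of all genes. CD274, PVR, NECTIN2 and CD55 rose, 4 of 9 beside 29.9%, and NT5E fell, 1 of 9 beside 29.9%. PVR, NECTIN2 and NT5E separated the groups without overlap, beside 31.9% of all genes. With library size alone the split over all genes was 6041 higher and 3311 lower, in place of 4633 and 4625. Against EGCG the combination called 7 of 9, beside 57.8%. PVR, NECTIN2, LGALS9 and CD55 were higher, beside 28.7% of all genes, and CD276, NT5E and CD59 lower, beside 29.1%. PVR and NT5E did not overlap, beside 27.5%. With library size alone the split there was 5737 higher and 3250 lower, in place of 4440 and 4510.

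Adding EGCG to resveratrol called 3 of 9 (CD274, PVR and CD59), beside 7.86% of all genes. All 3 were higher, beside 4.01% of all genes, and none of the 9 was lower, beside 3.86%. The same 3 genes separated the 6 combination from the 6 resveratrol libraries, beside 3.20%. The median of the 9 was 0.10, against 0.00 over all genes. Of these 3, only PVR was called in replicates 1 to 3 alone, in replicates 4 to 6 alone, and with no filter beyond 1 count in all. The interaction called none of the 9 by edgeR, beside 0.265% of all genes. At an unadjusted p under 0.05 it passed 1 of 9, PVR, beside 7.72%. DESeq2 also called none for the interaction, again without an adjusted p for CD274.

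**Figure D4:**
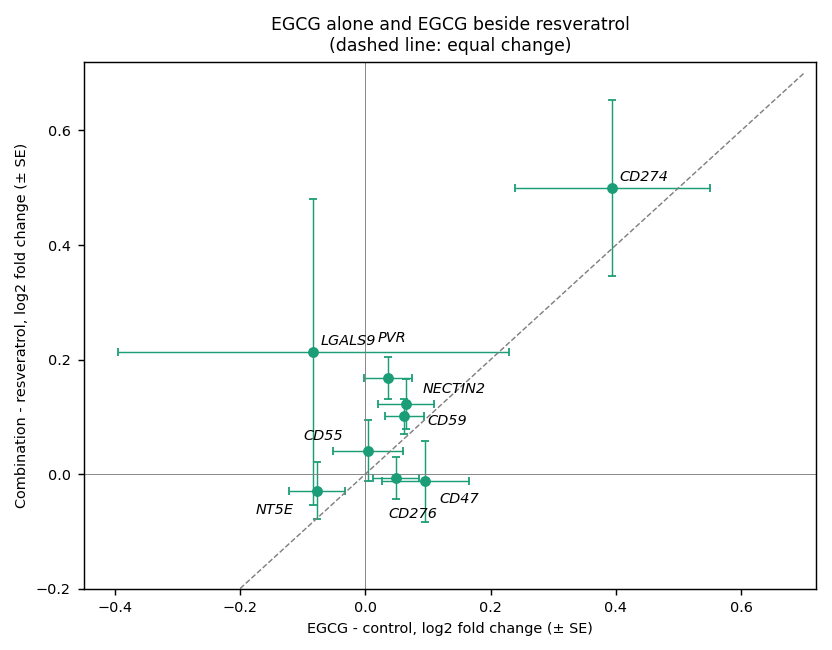
Log2 fold change of each tested gene with EGCG alone against control (x axis) and with EGCG beside resveratrol (combination against resveratrol, y axis), with SE bars and a dashed line of equal change. CD274 lies highest on both axes, at 0.39 and 0.50, and PVR lies above the line, at 0.04 and 0.17.

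The plot of EGCG alone and beside resveratrol sets 2 contrasts with no library in common side by side. CD274 was at 0.39 and 0.50, NECTIN2 at 0.07 and 0.12, CD59 at 0.06 and 0.10, and PVR at 0.04 and 0.17. NT5E (-0.08 and -0.03) was below 0 in both. CD55 was at 0.00 and 0.04. CD276 (0.05 and -0.01), CD47 (0.10 and -0.01) and LGALS9 (-0.08 and 0.21) had opposite signs. No interaction was called, so a difference between the pairs of values was not shown for any of the 9 genes.

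Of the 9 receptor genes listed, most had few or no counts. PDCD1 (PD-1) and CD80 had 0 counts in all 24 libraries, HAVCR2 (TIM-3) had 1 count in all, TIGIT had 3, SIRPG had 5 and PVRIG had 8. CD226 (DNAM-1) had 29 and CD96, another receptor of PVR, had 133. SIRPA had 4797 counts and was the one receptor tested. It was not called: the combination differed from control by 0.01 on the log2 scale.

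Other genes of the same pathways were read from lists, whose counts in the combination against control stand beside 29.9% of all genes higher and 29.9% lower. Among 10 tested ligands of the B7 and TNF families and related checkpoint molecules, the combination raised 7 and lowered 2, with a median log2 fold change of 0.38. The list mixes molecules that stimulate immune cells with ones that restrain them, so these are not counts of inhibitory ligands. One of the 7 was the stimulatory ligand TNFSF9, named after its values were seen, which rose by 0.96 ± 0.12. HLA-E, the ligand of the inhibitory receptor NKG2A, rose by 0.43 ± 0.04 (edgeR, adjusted p = 1.18e-12) and was also higher in the combination than with resveratrol, by 0.16 ± 0.04 (adjusted p = 0.00328). LGALS1 (galectin-1, which can trigger death of activated T cells) had a log2 fold change of -0.86 ± 0.06 and VSIR (VISTA) one of -0.42 ± 0.04. Both fell by similar amounts with resveratrol alone, -0.93 and -0.44.

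Of 5 tested relatives of PVR and NECTIN2, 3 rose with the combination and none fell, with a median of 0.49. These were CADM4 (0.49 ± 0.06) and CADM1 (0.75 ± 0.15), adhesion molecules of the nectin-like family, and NECTIN4 (0.62 ± 0.12), the target of an antibody-drug conjugate in bladder cancer. The same 3 rose with resveratrol alone, by 0.39, 0.81 and 0.65. NECTIN1, named after its values were seen, was the only gene of this list called with EGCG alone, beside 1.76% of all genes. It was higher there, by 0.16 ± 0.04 (edgeR, adjusted p = 0.0364). In the combination NECTIN1 was not called against control (-0.08 ± 0.04) and was lower than with EGCG alone (-0.24 ± 0.04, adjusted p = 8.93e-06).

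Of 16 interferon receptor, JAK, STAT and IRF genes and their regulators, 11 rose and 2 fell with resveratrol (median 0.26), beside 28.9% and 28.0% of all genes. With the combination 11 rose and 1 fell (median 0.29), beside 29.9% in each direction. CD274 itself was not called with resveratrol. STAT2 rose by 0.69 ± 0.05 with resveratrol and 0.83 ± 0.05 with the combination. STAT3 rose by 0.29 ± 0.03 and 0.45 ± 0.03. IRF1, a direct activator of the CD274 gene, rose by 0.35 ± 0.08 and 0.64 ± 0.08, and was higher in the combination than with resveratrol by 0.29 ± 0.07 (edgeR, adjusted p = 0.0138). Adding EGCG to resveratrol raised 3 of the 16, STAT3, IRF1 and STAT2, beside 4.01% of all genes, and lowered 0, beside 3.86%. With EGCG alone IRF1 was at 0.15 ± 0.08 and was not called (adjusted p = 0.545). Among 16 genes for the stability and glycosylation of PD-L1 protein, the combination raised 5 and lowered 6 (median -0.08). STT3B, a subunit that adds N-glycans, was at -0.35 ± 0.05, CSNK2A1, a catalytic subunit of casein kinase 2, at -0.29 ± 0.03, and CMTM4, which protects PD-L1 from degradation, at 0.25 ± 0.04.

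Of 10 tested genes of extracellular adenosine, NT5E itself not counted, 6 fell and 2 rose with the combination (median -0.26), beside 29.9% of all genes in each direction, and the counts with resveratrol alone were the same. The nucleoside transporter SLC29A1 was at -0.58 ± 0.04, adenosine kinase ADK at -0.50 ± 0.04, and the transporter SLC29A2 at 0.63 ± 0.07. The list mixes genes that make, clear, carry and sense adenosine, so these counts give no direction for adenosine itself.

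Of 10 tested components and regulators, 7 rose with the combination and none fell, with a median of 1.06. CLU (clusterin, a fluid-phase inhibitor of the final pore) rose by 1.32 ± 0.05, the protease C1S by 2.34 ± 0.11 and its relative C1RL by 0.96 ± 0.06. C1S and C1RL were also higher in the combination than with resveratrol, by 0.43 ± 0.09 (adjusted p = 0.00153) and 0.22 ± 0.05 (adjusted p = 0.00782). Of 27 tested genes that build or attach GPI anchors, on which CD55, CD59 and CD73 depend, 11 rose and 5 fell (median 0.06), together near the 59.8% of all genes called. PIGQ was at 0.54 ± 0.05, PIGW at -0.45 ± 0.06 and PIGO at -0.27 ± 0.05.

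Among 7 tested genes of CD47 maturation and phagocytosis, 5 rose and 1 fell with the combination. QPCTL, the enzyme that modifies CD47 so that SIRPA can bind it, rose by 0.65 ± 0.12, MFGE8, a bridge for engulfment, by 0.95 ± 0.08, and THBS1, a soluble ligand of CD47, was at -0.74 ± 0.03. NKG2D ligands mark stressed cells for natural killer cells, the activating counterpart of the checkpoint ligands. Of 8 tested, 7 rose and none fell with the combination, with a median of 0.82. ULBP1 rose from 99.7 ± 11.5 to 214 ± 15.5 normalized counts, ULBP2 by 0.81 ± 0.06 and RAET1L by 0.94 ± 0.10.

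**Figure D5:**
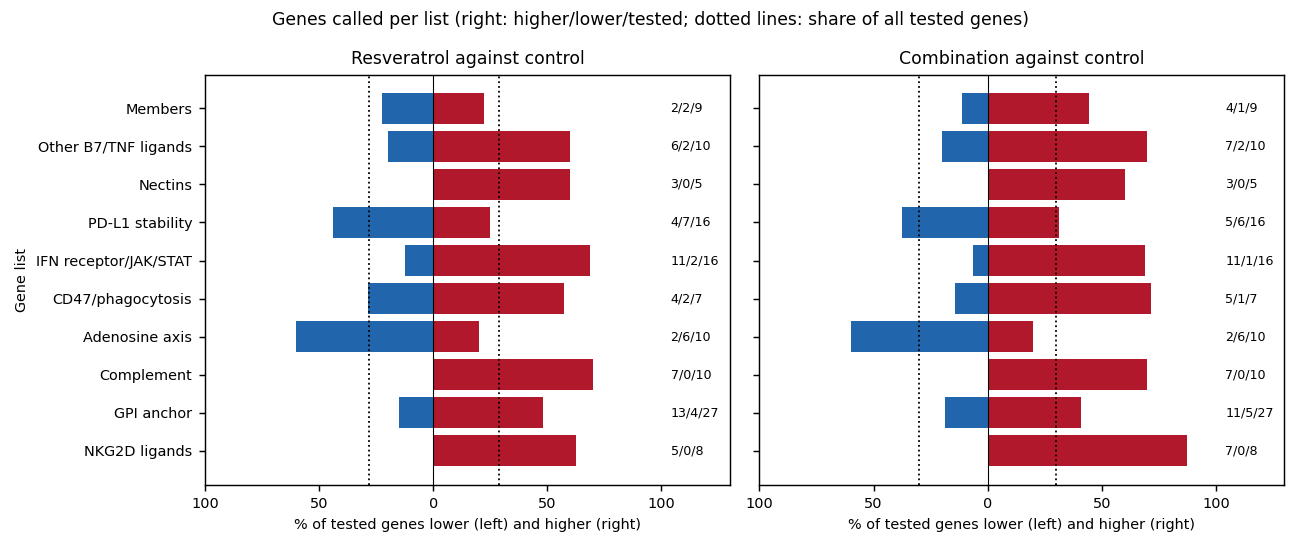
Share of the tested genes of each list that were called lower (left) and higher (right) with resveratrol and with the combination against control, with the counts higher, lower and tested at the right and dotted lines for the share over all tested genes. The complement, nectin and NKG2D ligand lists have no gene called lower, and the adenosine list has 6 of 10.

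The genes most like each of the 5 members called in the combination against control were those whose centred log2 CPM over the 24 libraries had the smallest root mean square difference from its own, among 15475 genes. For CD274 these were KRT8P33 (0.207) and TNFAIP3 (0.246), against a median of 0.385 over all genes. TNFAIP3 had log2 fold changes of 0.20 with EGCG, 0.00 with resveratrol and 0.53 with both agents. For NT5E they were NPM1P27 (0.0803) and DUT (0.0807), for PVR HSPA5 (0.0579) and APLP2 (0.0585), for NECTIN2 SMG5 (0.0501) and LRRC8A (0.0549), and for CD55 GHITM (0.0609) and UXS1 (0.0687). KRT8P33 and NPM1P27 are pseudogenes that can share reads with their parent genes.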

How the data were processed

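RNA of 24 libraries of MDA686TU cells was made into stranded mRNA libraries and sequenced in pairs. The submitters' processing notes name bcl2fastq 2.17.1.14, FastQC 0.11.5, Trimmomatic 0.36, HISAT2 2.0.4, SAMtools 1.3.1, DESeq2 1.20.0 and GRCh38. The counting program, annotation release and strand setting are not given in the sources used here. The authors deposited raw counts per gene, normalized counts (a signal: counts divided by a size factor) and FPKM values.

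The test on raw counts was that of edgeR 4.0.16, run in R 4.3.3 (TMM, filterByExpr, quasi-likelihood fit of 4 groups, no covariate), and DESeq2 1.42.0 was an alternative. Genes with adjusted p under 0.1 and p under 0.05 were called. Per-library levels and their SD are normalized counts, and FPKM ordered the genes. Symbols and coordinates came from GENCODE v44. Totals of 7034872 to 11735574 counts limit the precision of sparse genes. The edgeR and DESeq2 tests of the combination against control were tried on simulated counts, with planted changes larger than most of those of the members. Other comparisons and steps were not simulated.

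The members and lists were chosen with earlier results of these data known. Named genes are the members, the up to 3 genes per list called in the combination with the smallest p, receptors and markers, the 2 genes most like each member called in the combination against control, and overlapping or near-identical genes. Alternatives were other scalings, filters, thresholds and groups in the fit, a replicate block, a batch term, replicates 1 to 3 or 4 to 6 alone, and each library left out.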

Additional observations from a re-analysis of the deposited data

Results flagged for a closer look

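In 40 groups of 6 libraries (10 genes in 4 groups), 4 held a library whose gap to the nearest other, as a share of the group's range, exceeded Dixon's critical value at 95%, and chance alone flags about 1 group in 20. Control replicate 5 was lowest for CD274, at 12.37 normalized counts with the next at 22.12. Without it, the difference of EGCG from control fell from 0.39 to 0.28 on the log2 scale, and the rise with the combination stayed called at 0.40. Control replicate 1 was highest for PDCD1LG2, at 10.14, with the next at 5.698. Resveratrol replicate 4 was highest for LGALS9, at 17.8, with the next at 9.603. These 3 genes had few counts in every library. Combination replicate 3 was highest for NECTIN2, at 614.5, with the next at 577.9, and the rise over control stayed called without it.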

How the results depend on the processing

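The number of members called stayed within 1.5 times its value in every alternative with these exceptions, of which the cause was not tested beyond the smaller number of libraries in a split: combination against resveratrol called 1 in place of 3 with every gene with at least 1 count, with replicates 1 to 3 alone and with replicates 4 to 6 alone, and combination against EGCG called 3 in place of 7 with replicates 1 to 3 alone. With each library left out, the counts were 0 to 0 for EGCG, 4 to 5 for resveratrol and 5 to 7 for the combination against control, 2 to 3 against resveratrol, 5 to 8 against EGCG, and 0 to 0 for the interaction. Of 19 calls, 10 held in all alternatives and 9 were lost in some, and of 35 values not called, 6 became called in some.

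The replicate numbers shared by the groups were not treated as pairs, since most correlations of deviations with the same number were under 0.1: these lay between -0.0111 and 0.131. Of 36, 15 were best with their own of 6 numbers, a hint from the data and not from the design. With the replicate block the members called were 0, 4, 5, 4, 7 and 0 in the 6 comparisons, NECTIN2 in the combination against resveratrol being added (adjusted p = 0.0662). The split into replicates 1 to 3 and 4 to 6 was known from earlier results of these data.

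Values that changed direction were small and were called neither way. For CD274 with resveratrol they were -0.002204 (DESeq2), -0.000462 (DESeq2 size factors), -0.000327 (every gene with at least 1 count), -0.004259 (replicate block) and -0.052394 (replicates 1 to 3). With library size alone they were 0.023183 for CD276 and 0.072250 for CD47 with resveratrol, and 0.011098 for CD276, 0.054644 for CD47 and 0.049101 for CD59 with the combination. CD47 with resveratrol was 0.009786 with at least 10 counts in every library. In replicates 1 to 3 alone, EGCG gave -0.025349 for PVR and 0.129463 for LGALS9, resveratrol gave 0.053669 for CD47, combination against resveratrol gave 0.070118 for CD276, and the interaction was 0.051250 for CD276 and -0.007522 for CD55. In replicates 4 to 6 alone, EGCG gave -0.009759 for CD55, combination against resveratrol gave 0.077922 for CD47, 0.053293 for NT5E and -0.021814 for LGALS9, and the interaction was 0.063805 for CD47. With libraries left out, the ranges were -0.0176 to 0.0281 for CD55 and -0.278 to 0.110 for LGALS9 with EGCG, -0.0960 to 0.102 for CD274 and -0.0392 to 0.00674 for CD47 with resveratrol, -0.0713 to 0.0587 for CD47 with the combination, -0.0551 to 0.0750 for CD47 and -0.0289 to 0.0137 for CD276 in the combination against resveratrol, and -0.00253 to 0.0610 for the interaction of CD55. Depth limits CD274, PDCD1LG2 and LGALS9, at no more than 39 counts a library.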
